A study of Homo sapiens with 18 samples.

Results

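Fibronectin and other non-collagen proteins of the extracellular matrix were described here as a group of 10 genes, out of 58302 genes in the count table. The 10 genes were FN1, TNC, THBS1, THBS2, SPARC, POSTN, VCAN, FBLN1, FBN1 and ELN. They were selected on their role in the matrix of glioma, with the counts of the same 4 libraries already known. The difference between the groups is therefore given for these 10 genes as a description, without p-values. Each gene symbol matched 1 Ensembl identifier. The RNA came from U87MG, an established human glioblastoma cell line (U87 in the labels), and all 4 libraries were made from this single line. Control cells (2 libraries) grew under normal conditions and are titled WT in the labels, and the treated cells (2 libraries) received 10 μM Erastin, a small molecule that blocks cystine import through system Xc-, for 72 h. The paper's RNA-seq methods do not say whether the control cells received a vehicle. The counts on genes came to between 29412656 and 31513519 per library. Each replicate is described in the record as biological. What was prepared separately is not stated, so the errors measure only the spread between these libraries.

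The extracellular matrix is the protein and sugar network that cells secrete around themselves. Fibronectin is a soluble dimer that integrins on the cell surface pull into fibrils, and many other matrix proteins bind to those fibrils. Matricellular proteins such as tenascin-C, the thrombospondins, SPARC and periostin are secreted into the matrix and modulate adhesion, growth factor activity and matrix turnover more than they carry load. Fibrillin microfibrils and elastin form elastic fibres, and fibulins link their parts. Tenascin-C, versican and fibronectin are known for their abundance in the matrix of glioblastoma.

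FN1 (ENSG00000115414; chromosome 2 of GRCh38, 215360440 to 215436172, minus strand) encodes fibronectin. Its level in CPM, the count at a common library size scaled by the TMM factors of edgeR, was 4961 and 5423 in control cells against 473 and 519.8 after Erastin. Both Erastin libraries lay about an order of magnitude below both control libraries. The group means were 5192 ± 327 (SD, n = 2) and 496 ± 33.3 (SD, n = 2), and the fitted level was 10.5-fold lower with Erastin. On the log2 scale the difference was −3.39 (standard error 0.0783). By CPM, FN1 held rank 8 among all genes in control cells and rank 224 in Erastin-treated cells. Only 0.824% of the 16751 genes tested had a lower log2 fold change. In absolute CPM the loss of FN1 was the fifth largest of all genes (rank 5). In bulk RNA, fewer cells that express a gene and less of its RNA per cell cannot be told apart.

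TNC (ENSG00000041982; chromosome 9, 115019578 to 115118257, minus strand) encodes tenascin-C, a large hexameric matricellular protein. Control cells had 2472 and 2414 CPM, against 743 and 767 CPM after Erastin. The groups stood apart, and the log2 fold change was −1.69 (standard error 0.0629). THBS2 (ENSG00000186340; chromosome 6, 169215780 to 169254044, minus strand) encodes thrombospondin-2, a secreted protein known as an inhibitor of vessel growth. Its level was 131 and 128 CPM in control cells and 39.1 and 40.1 CPM after Erastin. Its log2 fold change of −1.71 (standard error 0.0725) was almost the same size as that of TNC.

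SPARC (ENSG00000113140; chromosome 5, 151661096 to 151687165, minus strand) encodes a collagen-binding matricellular protein also called osteonectin. The control libraries had 482 and 488 CPM, and the Erastin libraries had 169 and 179.8 CPM. The groups did not overlap, with a log2 fold change of −1.48 (standard error 0.0662). THBS1 (ENSG00000137801; chromosome 15, 39581079 to 39599466, plus strand) encodes thrombospondin-1, which activates latent TGF-beta. It was a scarce transcript, with 144 and 109 counts in control cells against 54 and 56 after Erastin. The log2 fold change of −1.19 had a standard error of 0.287, and without control replicate 1 the fold change was −0.97. POSTN (ENSG00000133110; chromosome 13, 37562583 to 37598844, minus strand) encodes periostin, and its counts were 4 and 0 in control cells against 2 and 0 after Erastin. Where the count was 0, a level of up to 0.0966 CPM in the control library and 0.0955 CPM in the Erastin library would be compatible with it (3 counts, counting error only). POSTN was too scarce to compare at this depth.

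VCAN (ENSG00000038427; chromosome 5, 83471465 to 83582303, plus strand) encodes versican, a large chondroitin sulfate proteoglycan that binds hyaluronan. It had 379 and 402 CPM in control cells and 173 and 178 CPM in Erastin-treated cells. All Erastin values were below all control values, and the log2 fold change was −1.15 (standard error 0.0662). FBLN1 (ENSG00000077942; chromosome 22, 45502238 to 45601135, plus strand) encodes fibulin-1, which binds fibronectin and elastic fibres. Its level was 33.9 and 38.1 CPM in control libraries and 11.1 and 14.5 CPM in Erastin libraries. The log2 fold change was −1.49 (standard error 0.139), with groups that did not overlap.

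Of the 9 genes with enough counts to test, FBN1 and ELN, which encode parts of the elastic fibre, had the smallest fitted fold changes. ELN was scarce. FBN1 (ENSG00000166147; chromosome 15, 48408306 to 48645849, minus strand) encodes fibrillin-1, the main protein of microfibrils. Control cells held 412 and 397 CPM of it, and Erastin-treated cells 272 and 264 CPM. The groups stood apart by a log2 fold change of −0.59 (standard error 0.0636). ELN (ENSG00000049540; chromosome 7, 74027789 to 74069907, plus strand) encodes elastin, the rubber-like core of the fibre. Its counts were 20 and 27 in control cells against 26 and 30 after Erastin, so the counts overlapped between the groups. In CPM the groups of ELN just failed to overlap, with 0.869168 in control replicate 2 against 0.869246 in Erastin replicate 1. Its log2 fold change of 0.26 was smaller than its standard error of 0.498.

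Of the 10 genes, 9 passed the filter on low counts, and POSTN failed it. Of these 9 genes, 7 met the rule by which all genes were called lower, at a log2 fold change of −1 or less with an adjusted p under 0.05 in edgeR's quasi-likelihood test, and 0 met that for higher. Among all 16751 genes tested, 9.34% were called lower and 6.24% higher. The 10 genes were chosen with this contrast known, so this count is no test of them and nothing was read from it. Both Erastin libraries lay below both control libraries in CPM for 8 of the 9 genes, and for 36.9% of all genes tested. The median log2 fold change of the 9 genes was −1.48, and that of all genes tested was −0.0026.

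**Figure D1:**
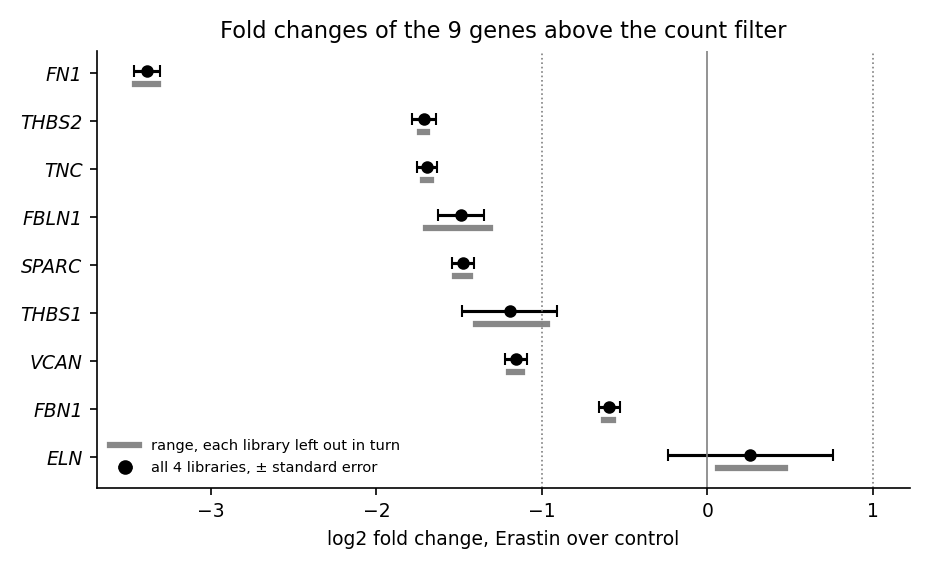
Log2 fold change (Erastin over control) of the 9 genes above the count filter: points with bars give the fit of all 4 libraries ± standard error, grey bars the range with each library left out in turn, and dotted lines a log2 fold change of 1 in either direction. FN1 stands apart at −3.39, TNC and THBS2 lie side by side at −1.69 and −1.71, and the bar of ELN crosses 0.

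The same genes were placed among all others. In the plot of fold change against mean level, FN1 and TNC lie at the right, among the most abundant transcripts, while THBS1 and ELN lie where counts are few and the points of all genes spread widely.

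**Figure D2:**
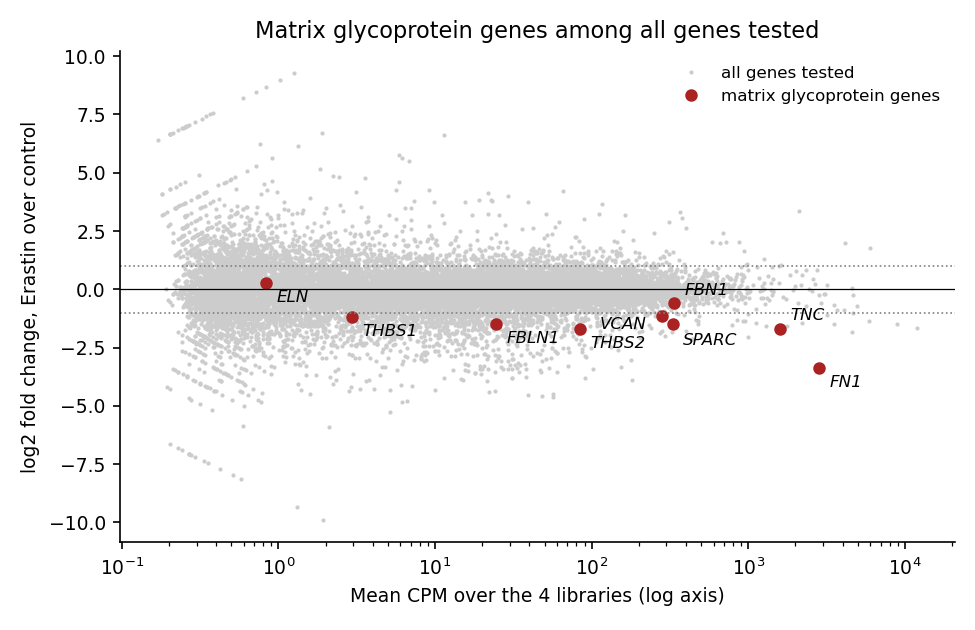
Log2 fold change (Erastin over control) against the mean CPM over 4 libraries (log axis). Grey points are the 16751 genes tested, and red points are the 9 genes of the group above the filter. Dotted lines mark a log2 fold change of 1 in either direction. FN1, at −3.39, is the lowest point among the most abundant genes, and FBN1, at −0.59, inside the dotted lines.

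To compare levels between genes, counts were also divided by the exonic length of each gene in the table (RPKM, a level per kilobase of exon at a common library size). In control cells the order began with FN1 at 299.9 ± 18.9 RPKM (SD, n = 2), TNC at 254 ± 4.33 RPKM (SD, n = 2) and SPARC at 100.4 ± 0.762 RPKM (SD, n = 2). VCAN at 26.4 RPKM and FBN1 at 25.2 RPKM overlapped between their libraries, so their order was not resolved. THBS2 followed at 20.3 RPKM and FBLN1 at 4.95 RPKM. THBS1, ELN and POSTN were below 1 RPKM, at 0.449, 0.116 and 0.012. In Erastin-treated cells TNC came first at 78.3 ± 1.81 RPKM (SD, n = 2), before SPARC at 36.1 ± 1.62 RPKM (SD, n = 2) and FN1 at 28.7 ± 1.92 RPKM (SD, n = 2). FBN1 at 16.7 RPKM stood above VCAN at 11.8 RPKM. No other pair of neighbours overlapped between its libraries in either group. The length of FN1 in the table (17315 bases) is the union of all annotated exons and exceeds that of its canonical transcript (8390 bases). With canonical lengths, a choice made after the data were seen, TNC was again first and FN1 came second in Erastin-treated cells, ahead of SPARC. FBN1 then stood above VCAN in control cells too, at 34.8 against 31.7 RPKM, and ELN above THBS1 after Erastin, at 0.268 against 0.230 RPKM.

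**Figure D3:**
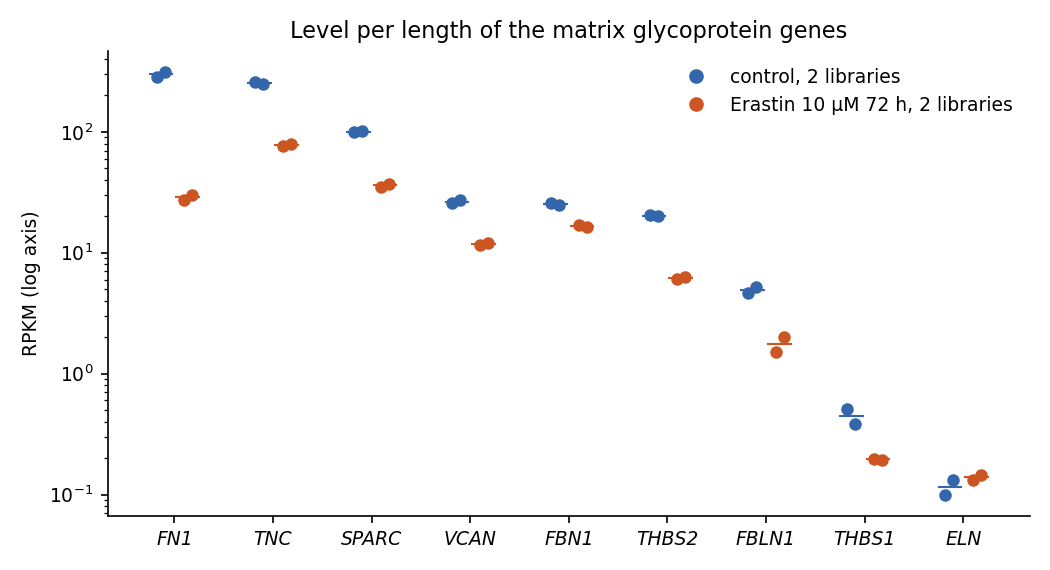
Level per length (RPKM, log axis) of 9 genes in each of the 2 control (blue) and 2 Erastin (orange) libraries, with lines at the group means; POSTN, with a count of 0 in 1 library of each group, is not drawn. FN1 drops from the top of the control order (299.9 RPKM) to below TNC and SPARC after Erastin (28.7 RPKM).

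Ratios within a library do not depend on how libraries are scaled. The ratio of FN1 to TNC in RPKM was 1.12 and 1.25 in control cells against 0.354 and 0.377 after Erastin. FN1 had 11.2 and 12.7 times the level of FBN1 in control cells but 1.61 and 1.83 times after Erastin. By contrast, the ratio of TNC to SPARC moved little, from 2.57 and 2.48 to 2.21 and 2.14. FBN1 over VCAN was 1.00 and 0.912 in control cells and 1.45 and 1.37 in Erastin-treated cells. Among these 4 ratios, those with FN1 as numerator moved furthest between the groups, which follows from the fold changes given above.

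Together the 10 genes took 0.861% and 0.924% of all counts in control cells, against 0.191% and 0.200% after Erastin. FN1 made up 55.9% and 58.3% of the counts on the 10 genes in control cells and 25.1% and 26.4% after Erastin. The share of TNC within the group went from 27.8% and 26.0% to 39.4% and 39.0%, although its own level was lower. The share of FBN1 went from 4.64% and 4.27% to 14.5% and 13.4%.

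**Figure D4:**
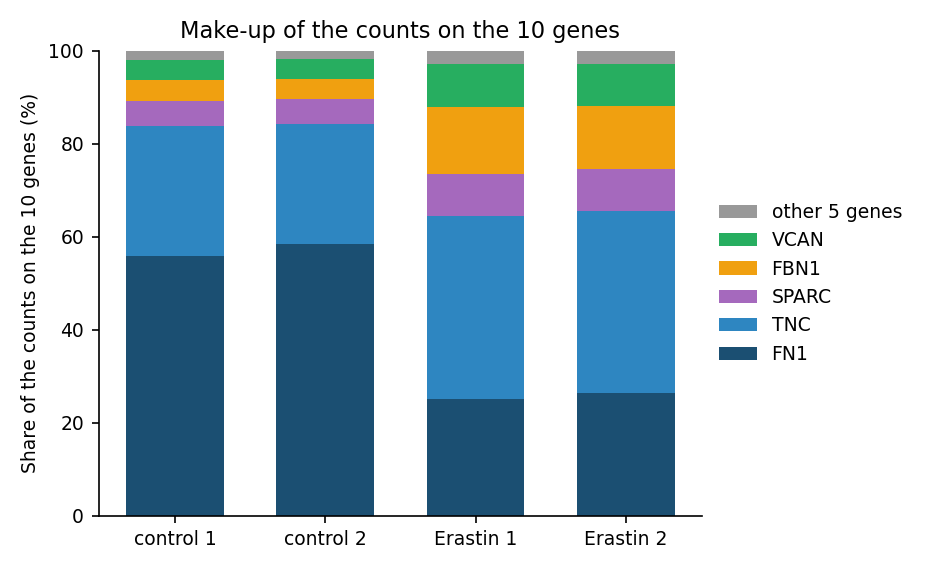
Share (%) of the counts on the 10 genes that each gene took, as 1 stacked bar for each of the 4 libraries, with 5 genes drawn by name and the other 5 pooled. FN1 is the largest block in both control libraries (55.9% and 58.3%), and TNC is the largest in both Erastin libraries (39.4% and 39.0%).

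Sequence shared with other genes was short. Canonical transcripts (GENCODE release 44) were cut into all their words of 31 bases, and between 0% and 0.902% of a gene's words also occurred in a transcript of another gene, with the highest share in THBS1. The counting took no account of strand, and reads on the exons of more than 1 gene were left out. Genes on the opposite strand shared exon bases with THBS1, SPARC, VCAN and ELN. The antisense CLMAT3 covered 381 bases (7.89%) of SPARC and had 37 counts over the 4 libraries. VCAN-AS1 covered 453 bases (3.05%) of VCAN and had 42 counts. ELN-AS1 covered 165 bases (2.52%) of ELN and had 122 counts, more than ELN itself in each control library, so the level of ELN is uncertain. THBS2-AS1 lies within the span of THBS2 on the opposite strand with 0 shared exon bases. It had 64 and 38 counts in control cells and 107 and 131 after Erastin, a direction opposite to that of THBS2.

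The upstream sequences of FN1, TNC and THBS2 are shown because these are the genes with the largest falls and differ in their exact matches to the motifs searched. RefSeq promoter windows (GRCh38.p14, from 250 bases before to 50 bases after the start site) matched 9 of the 10 genes. The 250 bases upstream of the RefSeq start site are printed 5′ to 3′ on the strand of the gene. That start differs from the end of the gene in the counted annotation. Part of the printed bases of FN1, TNC and THBS2 therefore lies inside the gene spans given above. The upstream bases of SPARC, VCAN, FBLN1 and FBN1 lie wholly inside theirs. Capitals mark matches to any of 6 motifs searched on both strands. These were the TATA box (letters TATAAA), the cAMP response element (letters TGACGTCA), the GC box (letters GGGCGG), the C/EBP-ATF element (letters TGATGNAA), the antioxidant response element (letters TGACNNNGC) and the AP-1 site (letters TGANTCA, where N is any base). The windows lie at chr2:215436069-215436318 for FN1, chr9:115118158-115118407 for TNC and chr6:169253847-169254096 for THBS2, all on the minus strand.
FN1: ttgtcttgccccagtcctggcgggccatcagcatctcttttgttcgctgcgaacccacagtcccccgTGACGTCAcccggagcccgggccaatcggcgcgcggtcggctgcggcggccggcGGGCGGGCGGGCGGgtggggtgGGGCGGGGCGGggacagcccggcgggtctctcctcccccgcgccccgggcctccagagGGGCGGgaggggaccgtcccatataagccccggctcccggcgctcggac
TNC: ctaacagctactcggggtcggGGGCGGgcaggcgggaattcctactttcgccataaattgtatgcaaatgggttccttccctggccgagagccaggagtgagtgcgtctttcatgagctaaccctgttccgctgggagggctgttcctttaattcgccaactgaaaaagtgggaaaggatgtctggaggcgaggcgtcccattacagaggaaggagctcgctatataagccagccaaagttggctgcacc
THBS2: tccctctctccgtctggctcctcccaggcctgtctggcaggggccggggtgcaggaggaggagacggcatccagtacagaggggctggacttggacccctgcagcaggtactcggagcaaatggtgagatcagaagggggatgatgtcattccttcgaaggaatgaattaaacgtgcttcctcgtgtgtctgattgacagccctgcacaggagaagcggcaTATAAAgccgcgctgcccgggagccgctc

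FN1 held a cAMP response element that begins at −183 from the start site, and it was the only one of the 9 windows with this motif, which occurs in 1.85% of 35116 promoters of the same length. FN1 also held 6 GC box matches, of which those at −129, −125 and −121 overlap each other, as do those at −107 and −102. A GC box occurred in 5 of the 9 windows (FN1, TNC, THBS1, VCAN and FBLN1) and in 45.0% of all promoters. The exact letters TATAAA began at −29 in THBS2 and in POSTN, and 11.5% of all promoters hold them on either strand. The near match TATAAG in the printed FN1 and TNC sequences was not searched for. A TATA box of other letters was therefore not excluded in any window. The AP-1 site was found in POSTN alone, against 7.71% of all promoters. The C/EBP-ATF element and the antioxidant response element were found in 0 of the 9 windows, against 3.62% and 13.3% of all promoters. The GC content of the windows ran from 39.0% (POSTN) to 78.0% (FBLN1), with 76.7% for FN1, 57.3% for TNC and a median of 58.7% over all promoters.

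To find genes with a like pattern, the 4 log2 CPM values of each gene were centred on their mean and compared by Euclidean distance, for the 3 members with the highest control RPKM. Nearest to FN1 were EFEMP1 (distance 0.0783), UBE2C (0.0833) and KIF14 (0.112), whose log2 fold changes were −3.43, −3.38 and −3.42. Nearest to TNC was THBS2 (distance 0.0168), followed by TGFB2 (0.0304) and KPNA2 (0.0306). Nearest to SPARC were GJA1 (0.0401), PRSS23 (0.0465) and ENSG00000227076 (0.0473), a gene without a symbol in the table used here. That gene was scarce, at 1.27 CPM in control cells against 0.407 CPM after Erastin. Its log2 fold change was −1.62, against −1.48 for SPARC.

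Relatives of the same families that are not among the 10 genes were examined by the same edgeR test. Of 25 such genes 14 could be tested. Of these, 3 were called lower and 1 higher (21.4% and 7.14%, against 9.34% and 6.24% of all genes tested). Their median log2 fold change was −0.78. At an adjusted p under 0.05 without the fold threshold, 8 were lower and 2 higher in edgeR. By the same rule, 3977 of all 16751 genes tested were lower and 3892 higher. EFEMP1, which encodes fibulin-3, had the largest fall of the list. Its mean was 69.3 ± 5.56 CPM (SD, n = 2) in control cells against 6.44 ± 0.122 CPM after Erastin, and the log2 difference was −3.43 (standard error 0.112, edgeR adjusted p = 8.72e-10). HMCN1, which encodes the large basement membrane protein hemicentin-1, fell by 1.41 on the log2 scale (adjusted p = 2.40e-06, edgeR). SPOCK3, a testican related to SPARC, fell by 1.58 (adjusted p = 0.0145, edgeR), a call that was lost without Erastin replicate 1. THBS4, which encodes thrombospondin-4, rose from 3.75 ± 0.119 to 9.46 ± 0.616 CPM (SD of 2 libraries each), a log2 difference of 1.34 (adjusted p = 1.21e-04, edgeR). Without control replicate 2, 3 genes of this list were called higher.

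Genes that build elastic fibres were called lower in 6 of 13 tested (46.2%, 16 listed). They were called higher in 1 (7.69%), against 9.34% lower and 6.24% higher over all genes tested. Their median log2 difference was −0.99. At an adjusted p under 0.05 without the fold threshold, 8 were lower and 3 higher in edgeR. Over all 16751 genes tested, these counts were 3977 and 3892. The lysyl oxidases cross-link elastin and collagen. LOXL2 fell from 505 ± 12.9 to 142 ± 6.86 CPM (SD of 2 libraries each), a log2 difference of −1.83 (adjusted p = 1.95e-09, edgeR). LOXL1 and LOX also fell, with log2 fold changes of −1.43 and −1.31. The latent TGF-beta binding proteins LTBP1 and LTBP4, which attach to microfibrils, fell too, with log2 fold changes of −1.77 and −1.69 (adjusted p = 2.41e-09 and 1.05e-07, edgeR). MFAP2, a microfibril glycoprotein named after its values were seen, was the remaining gene called lower, at −1.06, and without control replicate 1 it was not called. EMILIN1, a glycoprotein of the elastin surface, rose from a low level of 0.536 CPM to 1.95 CPM. Its log2 fold change was 1.86 (adjusted p = 0.00621, edgeR), and without Erastin replicate 1 it was not called.

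A list drawn up for the hyaluronan matrix, to which versican binds, had 5 of 12 tested genes called lower (41.7%, 16 listed). Of all genes tested, 9.34% were called lower and 6.24% higher. In this list 0 were called higher, and its median was −0.91 on the log2 scale. At an adjusted p under 0.05 without the fold threshold, 8 were lower and 0 higher in edgeR. Over all 16751 genes tested, these counts were 3977 and 3892. At an unadjusted p under 0.05, 0 genes of the list were higher in edgeR. DESeq2 also called 0 higher. CEMIP, which takes part in hyaluronan breakdown, fell by 2.47 on the log2 scale (adjusted p = 4.50e-08, edgeR). HAPLN3, a link protein that ties proteoglycans to hyaluronan, fell by 2.06, and the hyaluronan synthase HAS2 fell by 1.11, a call that was lost without Erastin replicate 2. CSPG4, the membrane proteoglycan NG2, fell from 227 ± 32.2 to 51.7 ± 1.63 CPM (SD of 2 libraries each). HMMR had the largest fall of the list (−3.81, adjusted p = 9.26e-09, edgeR), and its product is known mainly for its role at the mitotic spindle.

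Among receptors for these proteins, 3 of 15 tested were called lower (20.0%, 19 listed) and 0 higher. Over all genes tested, the shares were 9.34% and 6.24%. The list's median was −0.63 on the log2 scale. At an adjusted p under 0.05 alone, 7 of the list were lower and 3 higher in edgeR. Over all 16751 genes tested, these counts were 3977 and 3892. Of the list, 4 were higher at an unadjusted p under 0.05 in edgeR, a threshold not counted over all genes. DESeq2 called 0 higher. ITGA4, an integrin chain that binds fibronectin, fell by 2.19 on the log2 scale (adjusted p = 1.68e-06, edgeR), and ITGB8, a partner of ITGAV, fell by 1.19. SDC1, the heparan sulfate proteoglycan syndecan-1, fell by 1.07, and without control replicate 1 its fold change of −0.999 was just short of the threshold. Of 3 further chains of fibronectin-binding integrins, named after their values were seen, ITGA5 and ITGB1 of the classical fibronectin receptor had log2 fold changes of −0.87 and −0.90 (adjusted p = 1.57e-06 and 5.38e-07, edgeR), below the fold threshold. ITGB3 had a log2 fold change of 0.59 in the other direction (adjusted p = 1.70e-05, edgeR), also below it. ITGAV and ITGB5, likewise named after their values were seen, had log2 fold changes of 0.16 and 0.03 (adjusted p = 0.0677 and 0.714, edgeR).

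**Figure D5:**
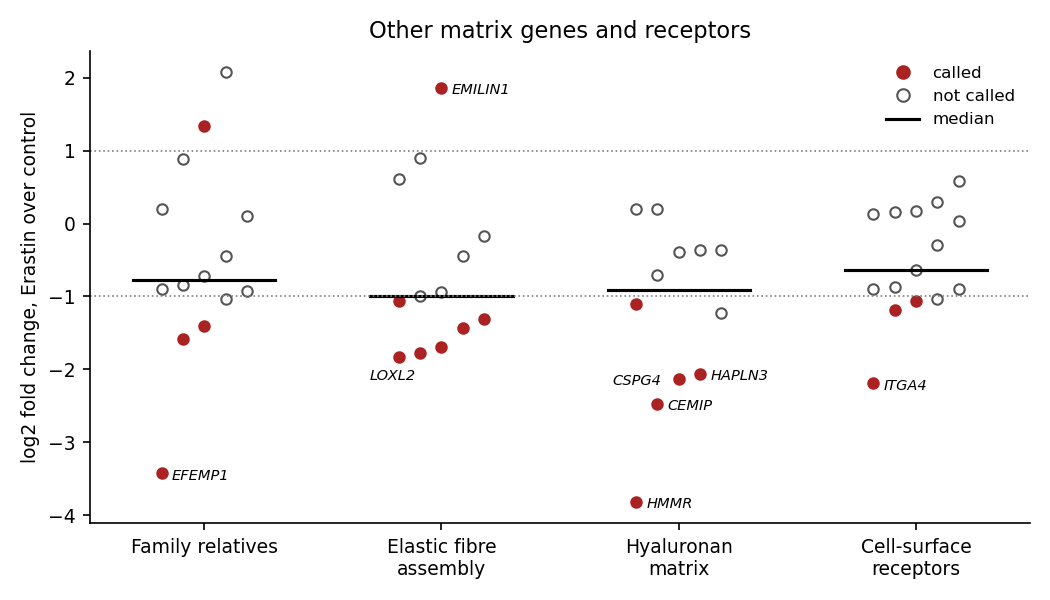
Log2 fold change (Erastin over control) of the tested genes of 4 lists of other matrix genes and receptors, with called genes filled, genes not called open, black lines at each list's median and dotted lines at a log2 fold change of 1 in either direction. The medians lie between −0.99 (elastic fibre assembly) and −0.63 (cell-surface receptors), and EFEMP1 and HMMR reach −3.43 and −3.81.

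The labelled tissue was checked against marker genes. Of 6 glial genes, AQP4 had 0 counts in every library and S100B at most 2. SOX2 had 2 and 0 counts in control cells against 4 and 6 after Erastin. GFAP was higher after Erastin, with 46 and 41 against 69 and 81 counts, and OLIG2 had 88 and 79 against 67 and 59. The summed level of this list was 46.2 and 35.2 CPM in control libraries and 8.19 and 7.16 CPM in Erastin libraries. NES made up 41.8 and 31.3 CPM of it in control cells and 3.51 and 2.45 CPM after Erastin. The lower sum thus came mostly from NES, with opposite directions inside the list. The 6 fibroblast and pericyte markers summed to 547 and 544 CPM in control cells and 165 and 139.6 CPM after Erastin, with 4 of 6 at 1 CPM or more in every library. Most of that sum was COL1A1, itself a matrix gene, whereas DCN had 24 and 29 against 19 and 14 counts and PDGFRA had 10 and 18 against 6 and 8. PDGFRB had 57.3 and 50.8 CPM in control cells and 17.8 and 18.9 CPM after Erastin, and LUM had 13.7 and 16.3 against 7.46 and 9.39 CPM. RGS5 went the other way, from 3.96 CPM in both control libraries to 6.35 and 5.95 CPM. The part of these markers in the differences of the matrix genes was not tested. The 4 immune markers summed to between 0.458 and 1.18 CPM, and PTPRC and AIF1 had at most 1 count. The 4 endothelial markers summed to 4.64 and 6.18 CPM in control cells and 1.64 and 2.07 CPM after Erastin, while CDH5 and CLDN5 had at most 1 count. Within this list PECAM1 was lower after Erastin (5.28 against 1.04 CPM on average) and VWF higher (0.130 against 0.793 CPM). The 5 neuronal markers summed to between 77.9 and 93.1 CPM in the 4 libraries, with opposite directions inside the list. SNAP25 averaged 37.1 CPM in control cells and 3.74 CPM after Erastin, and MAP2 averaged 52.6 and 80.4 CPM.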

How the data were processed

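RNA of 2 control and 2 Erastin-treated U87MG libraries was analysed; the ChIP-seq and HiChIP samples were not analysed here. The authors deposited raw counts of reads per gene, made per the file header with featureCounts 2.0.3 (2.0.4 in the labels) and the Ensembl release 90 annotation of GRCh38, after mapping with HISAT2 2.1.0. The deposited values held no decimals such as estimated counts have, and rounding changed 0 of them. By the command in the header, both mates of a pair were counted singly, strand was ignored, and reads on several genes or places were dropped. Symbols were joined by Ensembl identifier (57532 of 58302 genes). In edgeR 4.0.16 (R 4.3.3), filterByExpr with a minimum count of 10 kept 16751 genes, and TMM factors (0.971 to 1.02) and the quasi-likelihood test with Benjamini-Hochberg adjustment followed. Genes were called at an absolute log2 fold change of at least 1 and an adjusted p under 0.05. Standard errors of fold changes were back-calculated as the absolute log2 fold change over the square root of the quasi-likelihood F statistic. An exact permutation test is not useful with 2 libraries per group, so p-values rest on a variance shared across genes (biological coefficient of variation 10.3%). The script was tested on simulated data. The members and lists were chosen with earlier results of these data known. From each list up to 6 called genes were named, by size of change, where their mean reached 1 CPM. Intervals at a count of 0 cover counting error only, since reads without molecular identifiers are not independent molecules. Alternatives were DESeq2 1.42.0, RLE factors, library totals, other filters, counts of pairs (each count divided by 2 and rounded up), a replicate block and each library left out in turn.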

Additional observations from a re-analysis of the deposited data

How the results depend on the processing

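With all 4 libraries, every alternative that changed the normalization, filter, test or counting kept the direction of the 9 genes. The log2 fold change of FN1 lay between −3.39 and −3.34, and the median of the 9 genes between −1.48 and −1.43. Library totals moved 5 of the 9 by more than the spread between replicates. Over the whole table, between 791 and 1160 genes were called higher and between 1341 and 1713 lower. The labels number the replicates without stating a pairing, and same-numbered libraries deviated from their group means with a correlation of 0.0203 across genes. With the number as a replicate block, 1039 genes were called higher and 1568 lower, and no count of a list was moved by over 1.5 times. When 1 library at a time was left out, the median of the 9 genes ranged from −1.52 to −1.31, the relatives called higher from 1 to 3, and the elastic fibre genes called higher from 0 to 2. Use of canonical transcript lengths, added after the data were seen, moved the ratio of FN1 to TNC from 1.18 to 2.15 in control cells and from 0.366 to 0.666 in Erastin-treated cells, where the length of FN1 goes from 17315 to 8390 bases and that of TNC from 9636 to 8500. Depth limits POSTN, ELN and THBS1, and 2 libraries per group limit all errors.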
